A study of Rattus norvegicus with 31 samples.

Results

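Aged rats with impaired spatial memory were trained either with or without spatial information, and the mRNA of hippocampal CA3 was compared between the training conditions. The comparison holds 15 of the 31 arrays of the series, chosen by the group named in the sample labels: 8 arrays of spatially trained aged impaired rats (AI-S) and 7 of non-spatially trained aged impaired rats (AI-NS). All were male Long-Evans rats, 24 months old at behavioral characterization, and were called impaired from a learning index earned in a hidden-platform water maze. In a single later session every rat swam 8 trials to a visible platform. For S rats the extra-maze cues stayed in place and the platform was fixed, whereas for NS rats the cues were taken away and the platform was moved between trials. A probe trial followed in both conditions, and the brains were collected about 2 hours after the task began. CA3 was dissected by hand with both hemispheres pooled, and 1 array was run per rat. The AI-NS arrays carry the numbers 1 and 3 to 8. The remaining 16 arrays come from aged unimpaired (AU) rats given the same training, 8 per condition, and their values are set beside those of the impaired rats. A difference between the phenotypes was tested only where an interaction is given.

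CA3 pyramidal neurons receive mossy fiber input from dentate granule cells and project to CA1, and their recurrent connections are thought to store and complete spatial patterns. Neuronal firing switches on activity-regulated genes. Some encode transcription factors, such as the immediate early genes Fos and Egr1. Others are effector genes whose products act at synapses, such as Bdnf and Arc, and Arc is itself an immediate early gene. Training that differs in spatial content is therefore often examined through this gene class. Granule cells and CA1 neurons lie next to CA3, so a hand dissection can carry more or less of either, and in bulk tissue fewer cells of a type and less RNA per cell cannot be told apart.

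The labelled tissue carried its own markers. Values are log2 gcRMA signals, in which a step of 1 is a doubling. Among genes enriched in CA3 pyramidal cells, 7 of the 12 listed were measured, each at the brightest of its probesets. Nptx1, a secreted synaptic pentraxin, averaged 14.44 ± 0.12 (SD, n = 8) in AI-S and 14.38 ± 0.09 (SD, n = 7) in AI-NS rats. Cpne4, a calcium-dependent phospholipid-binding protein, averaged 12.55 ± 0.17 and 12.60 ± 0.06, and the kainate receptor subunit Grik4 10.19 ± 0.18 and 10.16 ± 0.14. The CA3 list had a median difference (AI-S minus AI-NS) of -0.01, with 3 of 7 genes above 0. Markers of the neighboring subfields were also present, and the lowest signals over the 15 arrays were 7.63 for Prox1 and 10.21 for Calb1 (granule cells) and 8.46 for Wfs1 (CA1).

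Some AI-NS arrays stood apart from the rest of their group. AI-NS replicate 4 held the highest CA1 marker score of the 15 arrays, where a score is the mean deviation of a list's genes from their mean over the 15 arrays. Its score was 0.75, against -0.25 to -0.02 in the other AI-NS arrays. AI-NS replicate 3 stood apart in the score of oxidative phosphorylation subunits (0.25, others -0.22 to -0.06). AI-NS replicate 8 stood apart in the RNA control difference, which sets the 3′ against the 5′ control probesets of beta-actin and Gapdh and increases as RNA becomes shorter (1.92, others 1.47 to 1.64). By group that control difference was 1.59 ± 0.10 (SD, n = 8) in AI-S and 1.59 ± 0.16 (SD, n = 7) in AI-NS (difference -0.003, two-sided exact permutation test, p = 0.966). Array medians lay between 8.97 and 9.14, and the precision of each value is limited by the number of rats.

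No probeset passed the threshold between training conditions in impaired rats. Of 16204 probesets tested with limma, 0 (0%) fell under the adjusted threshold of 0.1, with 0.862 as the smallest adjusted p. At an unadjusted p under 0.05 there were 662 probesets (4.09%), 335 higher and 327 lower in AI-S. SAM, which ranks probesets by a moderated difference and estimates false calls by permutation, gave 1 probeset, of the interferon-induced GTPase Mx2. False calls were taken as the median over 100 permutations, so a call of 1 probeset needs only a median of 0. Some permutations may still hold a probeset as extreme, so this call is weak. The median absolute difference was 0.07 on the log2 scale and the median SE 0.09. A difference of 0.19 sufficed for an unadjusted p of 0.05 in the median probeset, and less was enough for probesets with a smaller spread. In all, 82 probesets differed by more than 0.5 and 14 by more than 1.

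Whole profiles were not shown to separate by training condition. Arrays were set apart by 1 minus their Pearson correlation over all probesets. That distance averaged 0.0146 from AI-S to AI-NS rats and 0.0144 inside the groups. The difference of 0.000153 gave p = 0.323 in a one-sided exact permutation test over 6435 assignments. Of 8 AI-S arrays, 7 were nearer on average to their own group, and of 7 AI-NS arrays, 3 were. The distance averaged 0.0140 inside AI-S and 0.0150 inside AI-NS. AI-NS arrays thus lay farther from each other on average than from AI-S arrays.

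Genes of dentate granule cells held the largest list median among the cell type and activity lists drawn in the plot of gene lists. Of 15 listed markers 8 were measured, 7 of them had a difference above 0, and the list median was 0.25, against 0.01 over the 9037 genes measured. An unadjusted p under 0.05 was reached by 3 of the 8 genes, all higher in AI-S, where 2.59% of all genes reached it in that direction and 1.83% in the other. No gene of the list passed after adjustment. In AU rats the same list had a median of -0.08 (AU-S minus AU-NS), with 3 of 8 genes above 0.

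Prox1, the homeobox factor that maintains granule cell identity, had signals of 7.99 (lowest), 8.96 (median) and 9.68 (highest) in AI-S, and of 7.63, 8.20 and 9.47 in AI-NS rats. The groups overlapped, with 7 of 8 AI-S rats above the AI-NS mean and AI-NS replicate 3 the high array of its group. The difference was 0.60 (SE 0.26, limma adjusted p = 0.862, unadjusted p = 0.0314). In AU rats Prox1 differed by -0.24, and the interaction of training condition and phenotype was 0.85 (SE 0.32, unadjusted p = 0.0135, adjusted p = 1.00).

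Calb1, the calcium buffer calbindin, which is abundant in granule cells and their mossy fibers, had 10.55, 10.93 and 11.50 (lowest, median, highest) in AI-S and 10.21, 10.54 and 10.82 in AI-NS rats. Of 8 AI-S rats, 5 lay above the highest AI-NS rat, and how many of all probesets separated as far was not counted. The difference was 0.38 (SE 0.12, adjusted p = 0.862, unadjusted p = 0.00586). It was -0.07 in AU rats, and the interaction was 0.45 (SE 0.18, unadjusted p = 0.0191, adjusted p = 1.00). C1ql3, a secreted C1q-like protein of synapses, had 11.24, 11.50 and 12.08 in AI-S and 10.71, 11.20 and 11.65 in AI-NS rats. All 8 AI-S rats lay above the AI-NS mean, with a difference of 0.38 (SE 0.16, adjusted p = 0.862, unadjusted p = 0.0312) and 0.04 in AU rats.

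Pdyn, the precursor of the dynorphin peptides that granule cells store in mossy fibers, belongs to the list of granins and neuropeptides and had a like pattern. Its signals were 8.18, 8.64 and 9.70 in AI-S and 7.07, 8.25 and 8.85 in AI-NS rats. The lowest were AI-NS replicates 4 and 5, below every AI-S rat. The difference was 0.76 (SE 0.30, adjusted p = 0.862, unadjusted p = 0.0220), and -0.01 in AU rats. The other measured granule cell markers were Trpc6, a cation channel, at 0.31 (SE 0.19), Rfx3, a transcription factor of cilia genes, at 0.19 (SE 0.14), Stxbp6, a SNARE-binding protein, at 0.15 (SE 0.17), Dock10 at 0.10 (SE 0.08), and the proneural factor Neurod1 at -0.04 (SE 0.08). Dsp, C1ql2, Tdo2, Lct, Npnt, Pdzd2 and Cdh9 are not analysed here.

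**Figure D1:**
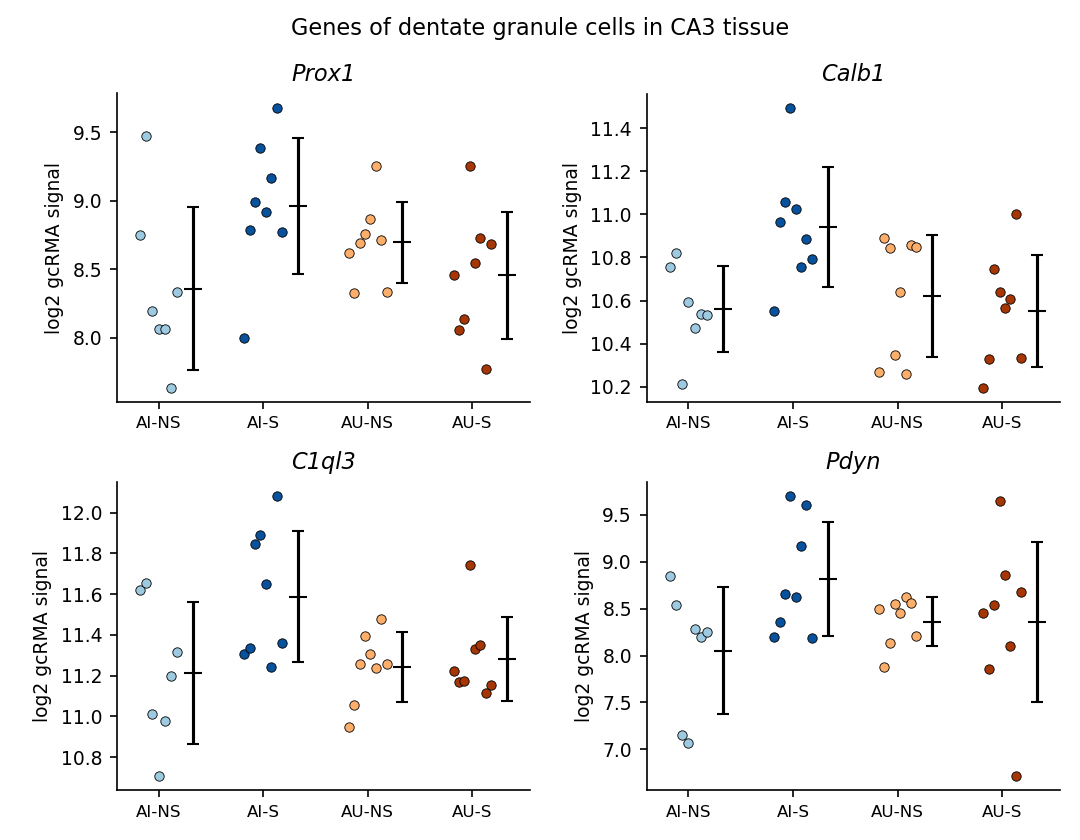
Log2 gcRMA signal (vertical axis) of Prox1, Calb1, C1ql3 and Pdyn by phenotype and training condition (7 AI-NS rats and 8 rats in each other group). Each point is a rat, and the bars give mean and SD. For Calb1, 5 of the 8 AI-S rats lie above the highest AI-NS rat, and the groups overlap for all 4 genes. How many of all probesets separated as far was not counted.

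The granule cell score per array ran from -0.29 (AI-S replicate 1) to 0.46 (AI-S replicate 4) in AI-S, with a median of 0.12. It ran from -0.38 (replicate 7) to 0.26 (replicate 3) in AI-NS, with a median of -0.19. The summed signal of the 8 markers lay between 13.28 and 13.97 (log2 of the sum) in AI-S and between 13.22 and 13.74 in AI-NS arrays. With the granule cell and CA1 scores as covariates, the difference was 0.08 for Prox1, 0.09 for C1ql3, 0.21 for Calb1 and 0.27 for Pdyn. The scores hold the first 3 of these genes themselves. Leaving out each array in turn moved the list median to between 0.19 and 0.33. The part of the dissection in these values was not tested.

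CA1 markers did not differ in one direction. Of 12 listed genes 8 were measured, 4 were above 0 and 4 below, and the median was 0.01 (AU rats 0.14). None had an unadjusted p under 0.05. Wfs1, an endoplasmic reticulum membrane protein that marks CA1 neurons, had 8.72, 9.07 and 10.01 in AI-S and 8.46, 9.09 and 10.50 in AI-NS rats, with a difference of 0.01 (SE 0.26). The highest signals were those of AI-NS replicate 4 and AI-S replicate 1. Ccn3, a matricellular protein, had -0.20 (SE 0.17), the phosphodiesterase-like Mpped1 -0.07 (SE 0.12) and the mannosidase Man1a1 0.08 (SE 0.14). AI-NS replicate 4 was the highest array of its group for each of these 4 genes, at 10.50, 10.98, 12.25 and 9.54. These 4 are the CA1 markers in which that array was flagged as standing apart, so this comes with the choice of genes. Of the CA1 markers not flagged, Etv1 had 0.08 (SE 0.06) and Gpr161 -0.11 (SE 0.15). Without AI-NS replicate 4 the median of the whole list was 0.14. The summed signal of the 8 CA1 markers over all arrays ran from 13.38 to 14.15 in AI-NS and from 13.46 to 13.77 in AI-S arrays.

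**Figure D2:**
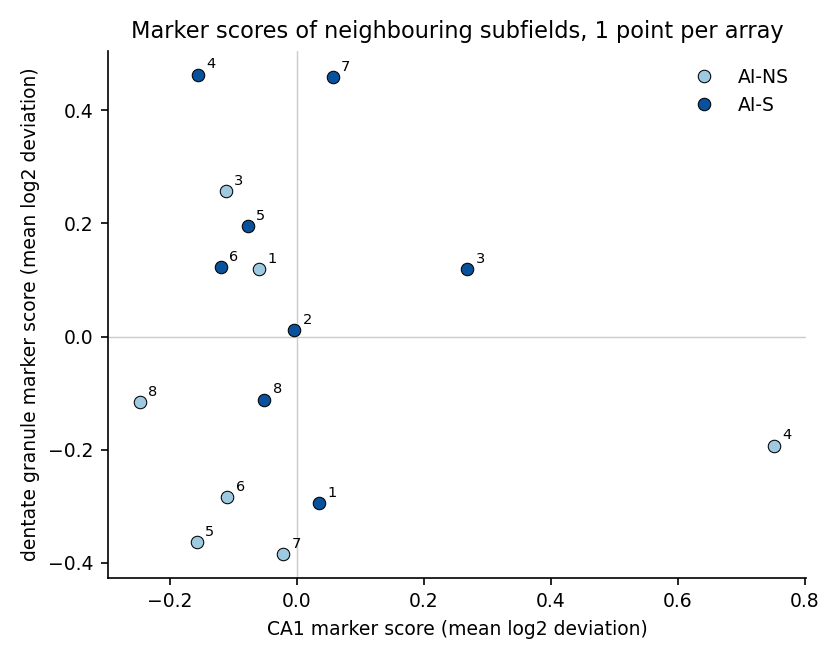
CA1 marker score (horizontal axis) against dentate granule marker score (vertical axis), both as mean log2 deviations over 8 genes, for the 15 AI arrays with the replicate number beside each point. AI-NS replicate 4 lies alone at a CA1 score of 0.75, and the granule cell scores of AI-S and AI-NS arrays overlap between -0.29 and 0.26.

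CA2, the narrow subfield between CA3 and CA1, was represented by 5 of 8 listed markers, of which 3 were above 0 (median 0.07). The median was 0.03 without AI-S replicate 1 and -0.02 with the subfield scores as covariates. Amigo2, an adhesion protein of CA2 neurons, had 9.17, 9.67 and 10.04 in AI-S and 9.52, 9.82 and 10.23 in AI-NS rats. Only 1 of 8 AI-S rats lay above the AI-NS mean. The difference was -0.26 (SE 0.12, adjusted p = 0.862, unadjusted p = 0.0532), against 0.30 in AU rats, and the interaction was -0.56 (SE 0.16, unadjusted p = 0.00175, adjusted p = 1.00). The other CA2 markers had -0.05 (SE 0.07) for Rgs14, a G protein regulator, 0.17 (SE 0.14) for the calmodulin-binding Pcp4, 0.30 (SE 0.24) for the neurotrophin Ntf3 and 0.07 (SE 0.08) for Necab2.

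The transcription factors of the immediate early class had small differences between spatial and non-spatial training. Of 23 listed genes 15 were measured, 2 were above 0 and 13 below, the differences ran from -0.12 to 0.05, and the median was -0.02 (AU rats 0.04). No gene had an unadjusted p under 0.05. Without AI-NS replicate 4 the median was 0.01. Npas4, Egr3, Fosl2 and Atf3 are among the genes not analysed here.

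Fos, a subunit of the AP-1 factor, had 8.90, 8.997 and 9.72 in AI-S and 8.52, 9.15 and 9.76 in AI-NS rats. In AI-S the signals lay within a narrow range apart from replicate 5, the highest, whereas those of AI-NS were spread over the whole range. The difference was -0.0014, with a 95% interval from -0.36 to 0.36. Egr1, a zinc finger factor, had 11.45, 11.69 and 11.92 in AI-S and 11.38, 11.90 and 12.13 in AI-NS rats, and 1 of 8 AI-S rats lay above the AI-NS mean. Its difference was -0.12 (95% interval -0.33 to 0.09), the lowest of the list, and 0.08 in AU rats. Fosb, another AP-1 subunit, was near the low end of the scale at 5.17 ± 0.23 (SD, n = 8) and 5.19 ± 0.36 (SD, n = 7), with a 95% interval of the difference from -0.32 to 0.28. The nuclear receptors Nr4a1 and Nr4a2 had -0.06 (SE 0.13) and -0.08 (SE 0.11). Nr4a3 had -0.0011 (SE 0.08) at its brightest probeset and -0.03 (SE 0.04) at its dimmest. The remaining one had -0.22 (SE 0.09, unadjusted p = 0.0221), so 1 of its 3 probesets differed from the others.

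Among activity-regulated effector genes, 18 of 28 were measured, 6 were above 0, and the median was -0.02 (AU rats -0.01). Without AI-NS replicate 4 the median was 0.02. Arc, a capsid-like protein that regulates AMPA receptor removal, had 9.89, 10.29 and 11.15 in AI-S and 9.98, 10.47 and 10.85 in AI-NS rats, fully overlapping. Its difference was -0.05 (95% interval -0.43 to 0.34). Bdnf, a neurotrophin released at active synapses, had 0.09 (95% interval -0.07 to 0.25), with 8.48, 8.68 and 8.82 in AI-S and 8.35, 8.53 and 8.85 in AI-NS rats. Homer1, whose long forms link metabotropic glutamate receptors to intracellular calcium stores, had -0.13 (SE 0.09) at its brightest probeset. Its 4 other probesets ran from -0.29 to -0.05, and which form each probeset reads was not examined.

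Scg2, a granin of dense-core vesicles, was the 1 effector gene of 18 with an unadjusted p under 0.05. Over all genes, 2.59% reached that p in the same direction and 1.83% in the other. Scg2 had 13.44, 13.61 and 13.68 in AI-S and 13.37, 13.46 and 13.53 in AI-NS rats. Of 8 AI-S rats, 7 lay above the highest AI-NS rat. Scg2 was singled out by its small p, and how many of all probesets separated as far was not counted. The difference was small, at 0.12 (SE 0.05, adjusted p = 0.862, unadjusted p = 0.0167). Dusp1, a phosphatase that inactivates MAP kinases, had the widest difference of the list, 0.31 (SE 0.19, adjusted p = 0.862), with 9.09, 9.55 and 10.11 in AI-S and 8.54, 9.40 and 9.75 in AI-NS rats. Its other probeset had 0.11 (SE 0.09). At the brightest the difference was 0.20 without AI-NS replicate 8 and 0.13 without AI-NS replicates 3, 4 and 8. In AU rats it was -0.37, and the interaction was 0.68 (SE 0.32, unadjusted p = 0.0385, adjusted p = 1.00).

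**Figure D3:**
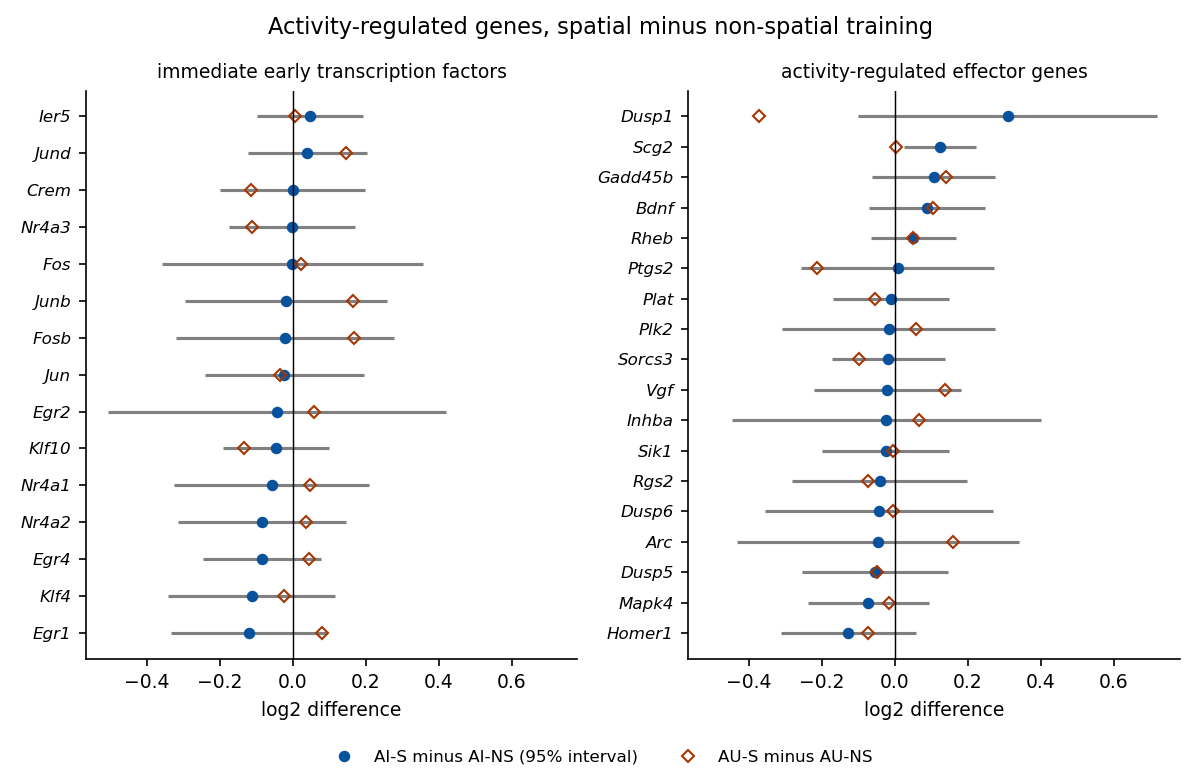
AI-S minus AI-NS log2 difference (horizontal axis) of the 15 measured immediate early transcription factors and the 18 measured activity-regulated effector genes, as filled circles with 95% intervals, and the AU-S minus AU-NS difference as open diamonds. Scg2 at 0.12 has the only interval of the 33 that lies clear of 0, and Dusp1 has differences of 0.31 and -0.37 in AI and AU rats. Over all genes, 2.59% were higher and 1.83% lower in AI-S at an unadjusted p under 0.05.

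Transcription of many activity-regulated genes passes through the cAMP response element, the palindrome TGACGTCA bound by CREB. In RefSeq promoters of build GRCr8, each reaching from 250 bases before to 50 bases after the transcript start, this motif (the same on both strands) was present in 1.91% of all 27457 promoters and in 3.33% of those of the measured genes. Of 16 effector genes with a promoter sequence 4 held it, and of 11 immediate early factors only Jund, the AP-1 subunit with a difference of 0.04, did. The stretches of 60 bases around the motif of the 4 effector genes are shown because they hold both Scg2 and Dusp1, and the capitals mark the motif.
Dusp1, chr10:17184703-17184762, strand +: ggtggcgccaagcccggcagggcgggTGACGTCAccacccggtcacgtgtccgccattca
Scg2, chr9:88256956-88257015, strand -: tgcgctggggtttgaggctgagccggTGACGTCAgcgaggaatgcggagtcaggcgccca
Plk2, chr2:43702444-43702503, strand +: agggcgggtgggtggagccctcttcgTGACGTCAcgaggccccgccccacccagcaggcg
Vgf, chr12:25277077-25277136, strand -: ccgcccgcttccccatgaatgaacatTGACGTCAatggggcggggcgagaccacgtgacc
Plk2, a kinase that weakens synapses after strong activity, had a difference of -0.02 (SE 0.14), and Vgf, a precursor of neuropeptides, -0.02 (SE 0.10). The 5 genes with the motif had a median difference of 0.04 (range -0.02 to 0.31), and the 22 without it -0.03 (range -0.13 to 0.11). A match is a stretch of letters and not a measured binding site.

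Swimming can evoke a stress response, and its genes had medians near 0. Of 14 measured glucocorticoid receptors and responsive genes 6 were above 0, with a median of -0.02. Ddit4, an inhibitor of mTOR signaling that glucocorticoids induce, had 10.96, 11.11 and 11.44 in AI-S and 10.50, 10.88 and 11.14 in AI-NS rats. Its difference was 0.26 (SE 0.10, adjusted p = 0.862, unadjusted p = 0.0163), and all 8 AI-S rats lay above the AI-NS mean. The difference was 0.20 without AI-NS replicate 8, 0.31 without AI-NS replicate 5 and 0.11 without AI-NS replicates 3, 4 and 8. The kinase Sgk1 had -0.16 (SE 0.10) and the metal-binding Mt2A 0.31 (SE 0.20). Of 34 chaperone genes 23 were above 0 (median 0.01), and none had an unadjusted p under 0.05. Of 16 clock genes 8 were above 0 (median -0.02), and the output factor Tef had 0.30 (SE 0.14, unadjusted p = 0.0476).

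Most synaptic families had medians near 0. The 11 measured ionotropic glutamate receptor subunits had a median of 0.02, the 18 GABA and glycine synapse genes 0.00, the 26 genes of SNAREs and vesicle release 0.00, the 21 of clathrin coats 0.06 and the 31 postsynaptic kinases and scaffolds -0.01. In none of these lists did a gene reach an unadjusted p under 0.05. All 4 measured metabotropic glutamate receptors were below 0 (median -0.13), with -0.16 (SE 0.09) for Grm3, -0.18 (SE 0.16) for Grm7 and -0.09 (SE 0.11) for Grm8. Without AI-S replicate 7 the median of these receptors was -0.06, and with the subfield scores as covariates it was -0.05. Of 12 neurotrophin and receptor genes 3 were above 0 (median -0.04). Among channels, Kcnc4, a subunit of fast-closing potassium channels, had 0.42 (SE 0.19, unadjusted p = 0.0413), and Cacnb1, an auxiliary subunit of calcium channels, 0.20 (SE 0.09, unadjusted p = 0.0346). The medians were 0.00 over 33 potassium channel genes and 0.00 over 23 sodium and calcium channel genes.

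Of 17 granins and neuropeptides 12 were above 0 (median 0.05), and 3 (Scg2, Pdyn and Cck) had an unadjusted p under 0.05 and were higher in AI-S, as were 2.59% of all genes. Cck, the cholecystokinin precursor made by basket cells among others, had 0.26 (SE 0.11, unadjusted p = 0.0353), with 11.63, 11.93 and 12.28 in AI-S and 11.28, 11.80 and 12.02 in AI-NS rats. Of 11 interneuron markers 4 were above 0 (median -0.05), among them the calcium buffer Pvalb at 0.23 (SE 0.11) and the peptide Sst at 0.26 (SE 0.15). The other 7 were below 0, down to -0.14. AI-NS replicate 3 had the highest interneuron score of its group (0.34), and without it the list median was 0.04.

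Oxidative phosphorylation and ribosomal protein genes lay above 0 without exception. All 66 measured subunits of oxidative phosphorylation had a difference above 0, from 0.0004 to 0.27 (median 0.14), where 52.3% of all genes were above 0. Of the 66, 6 had an unadjusted p under 0.05, all of them higher in AI-S, as were 2.59% of all genes. They include Ndufv2 at 0.17 (SE 0.07) and Ndufb7 at 0.21 (SE 0.09), which are subunits of complex I, and Atp5mf, of ATP synthase, at 0.19 (SE 0.08), each with an adjusted p of 0.862. All 39 measured ribosomal protein genes were above 0 (median 0.12), and none had an unadjusted p under 0.05. In AU rats 54 of the 66 (median 0.07) and 37 of the 39 (median 0.10) were also above 0. Suclg1, of the citrate cycle, had 0.17 (SE 0.07, unadjusted p = 0.0376), and 28 of 35 genes of glycolysis and the citrate cycle were above 0 (median 0.06, and 0.03 without AI-NS replicate 8).

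The genes of a family were read on the same 15 arrays, so their counts are not separate measurements. The oxidative phosphorylation score ran from -0.22 (replicate 5) to 0.28 (replicate 1) in AI-S, with a median of 0.10. It ran from -0.22 (replicate 8) to 0.25 (replicate 3) in AI-NS, with a median of -0.10. The ribosomal score ran from -0.15 to 0.20 in AI-S and from -0.27 to 0.19 in AI-NS. In both families the groups overlapped over most of their range. Leaving out each array in turn moved the median difference of oxidative phosphorylation genes to between 0.12 and 0.20.

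**Figure D4:**
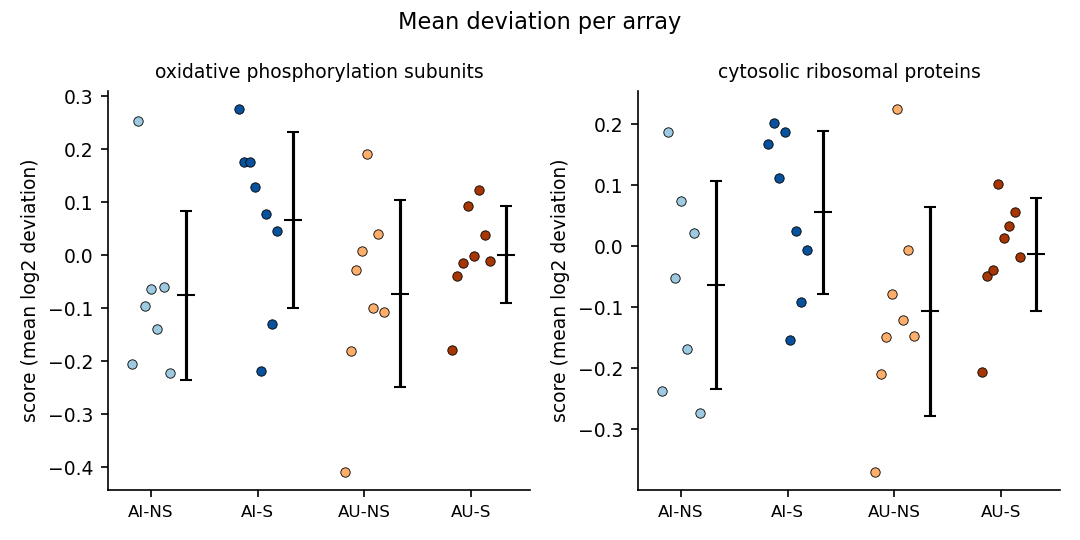
Score per array (vertical axis, mean log2 deviation from the AI mean) of 66 oxidative phosphorylation genes and 39 cytosolic ribosomal protein genes, as a point per rat with the mean and SD of each group beside it. The highest AI-NS array in the first panel is replicate 3 at 0.25, and AI-S arrays run from -0.22 to 0.28.

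Among non-neuronal genes, myelin genes (15, median 0.00), astrocyte genes (13, median 0.02) and endothelial genes (13, median -0.01) held no gene with an unadjusted p under 0.05. All 10 measured microglia genes were above 0, with a median of 0.20, and none had an unadjusted p under 0.05. Aif1, a calcium-binding protein of microglia, had 8.02, 8.19 and 9.13 in AI-S and 7.02, 7.88 and 8.75 in AI-NS rats (difference 0.43, SE 0.22). Fcer1g, an adaptor of Fc receptors, had 0.29 (SE 0.16), and the protease Ctss 0.18 (SE 0.09). The microglia score was 0.93 in AI-S replicate 2 and 0.79 in AI-NS replicate 7, each far above the median of its group, and -0.77 in AI-NS replicate 1. Without AI-S replicate 2 the list median was 0.10, and without AI-NS replicate 7 it was 0.35. The summed signal ran from 13.50 to 14.31 in AI-S and from 13.18 to 14.13 in AI-NS arrays.

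Of 15 MHC, complement and interferon genes 10 were above 0 (median 0.09, and -0.01 without AI-NS replicate 1). Ifitm3, an interferon-induced membrane protein, had 7.06, 7.37 and 8.51 in AI-S and 5.91, 6.84 and 7.51 in AI-NS rats, with a difference of 0.65 (SE 0.24, adjusted p = 0.862, unadjusted p = 0.0152). All 8 AI-S rats lay above the AI-NS mean. Stat3, a transcription factor of cytokine signaling, had 0.32 (SE 0.13, unadjusted p = 0.0273) at its brightest probeset and 0.07 (SE 0.14) at the other.

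**Figure D5:**
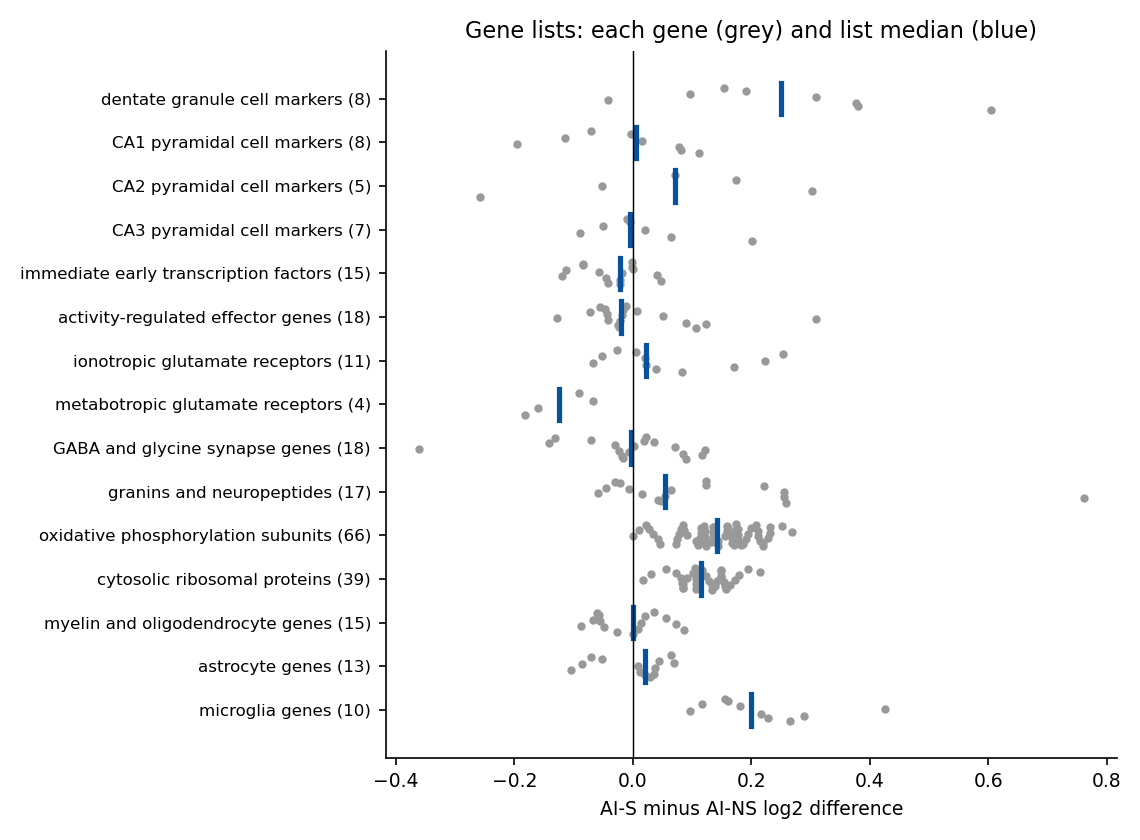
Differences between AI-S and AI-NS on the log2 scale (horizontal axis) for 15 gene lists, with genes as grey points, list medians as blue bars and the number of genes in parentheses. The medians of granule cell markers (0.25), microglia genes (0.20), oxidative phosphorylation subunits (0.14) and ribosomal proteins (0.12) lie to the right of 0, and those of both activity-regulated lists lie at -0.02.

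The probesets with the smallest unadjusted p belonged to no single family. Poglut2, a glucosyltransferase of the endoplasmic reticulum, had 5.04, 5.56 and 5.81 in AI-S and 5.74, 6.00 and 6.49 in AI-NS rats, and 6 of 8 AI-S rats lay below the lowest AI-NS rat. Its difference was -0.54 (SE 0.12, adjusted p = 0.862, unadjusted p = 0.000494). Lnc215, annotated as a long non-coding RNA, had 8.85, 9.27 and 9.38 in AI-S and 9.46, 9.55 and 10.08 in AI-NS rats, and all 8 AI-S rats lay below the lowest AI-NS rat. Its difference was -0.40 (SE 0.10, adjusted p = 0.862, unadjusted p = 0.00155). These probesets were picked for their small p, so little overlap comes with the choice. How many of all probesets separated the groups to this degree was not counted, here or for other named genes.

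Higher in AI-S, with differences that did not pass after adjustment, were Xab2, a spliceosome-associated protein, at 0.27 (SE 0.07), Emc4, a subunit of the complex that inserts membrane proteins, at 0.25 (SE 0.06), the protease inhibitor Serpinb6a at 0.49 (SE 0.13), and Ubxn11 at 0.35 (SE 0.09). For Xab2, Ubxn11 and Serpinb6a 6 of 8 AI-S rats lay above the highest AI-NS rat, and for Emc4 7 did. These genes too were picked for their small p. Anp32a, an inhibitor of protein phosphatase, had 0.49 (SE 0.14), the adaptor Gipc1 0.25 (SE 0.07), Bola1, which acts in mitochondrial iron-sulfur clusters, 0.24 (SE 0.07), and Pkig, an inhibitor of protein kinase A, 0.26 (SE 0.08). The microtubule affinity kinase Mark4 had 0.24 (SE 0.07) at one probeset and 0.02 (SE 0.10) at its brightest.

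Other probesets were lower in AI-S, with differences that did not pass after adjustment. Ing3, a subunit of a histone acetyltransferase complex, had -0.44 (SE 0.12), Trim33, a ubiquitin ligase of the TGF-beta pathway, -0.26 (SE 0.07), Hmbox1, a telomere-binding factor, -0.16 (SE 0.05), and Nfrkb, of the INO80 chromatin remodeler, -0.23 (SE 0.07). The ribosome assembly factor Mdn1 had -0.24 (SE 0.07), the centriole protein Spice1 -0.32 (SE 0.09), the glycogen-targeting phosphatase subunit Ppp1r3d -0.27 (SE 0.09), and the splicing factor Luc7l -0.27 (SE 0.08) at a dimmer probeset and -0.09 (SE 0.08) at its brightest. All differences of this group and the one above had an adjusted p of 0.862.

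The largest differences belonged to probesets with wide spread. Pxmp4, a peroxisomal membrane protein, had 7.45, 8.94 and 9.19 in AI-S and 2.81, 7.31 and 9.17 in AI-NS rats (difference 1.94, SE 0.84). Nqo2, a quinone reductase, had 1.59 (SE 0.50), the MHC class I gene RT1-N2, whose probes may also read near-identical family members, 1.28 (SE 0.54), and the arginine-cleaving enzyme Arg1 0.91 (SE 0.39). Vof16 had -1.40 (SE 0.50), and the intramembrane protease Sppl2a had -1.28 (SE 0.51) at one probeset and 0.16 (SE 0.17) at its brightest. Purb, a single-stranded nucleic acid binding protein, had -0.49 (SE 0.23) at one probeset and -0.28 (SE 0.14) at its brightest. The lowest AI-NS signal of Pxmp4 was under the low intensity limit of 4. Neither Pxmp4 nor Arg1 was tested where every array had to reach it. RT1-N2, Vof16 and this Sppl2a probeset each failed 1 of the stricter signal limits. Without AI-NS replicates 3, 4 and 8 the difference was 1.09 for Pxmp4 and 1.29 for Arg1. With the subfield scores as covariates it was 2.38 for Pxmp4 and 0.13 for Arg1. None of these probesets passed after adjustment.

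Mx2, the only gene called by SAM, is an antiviral GTPase that interferons induce. At that probeset its signals were 3.83, 5.85 and 7.28 in AI-S and 3.59, 3.89 and 4.39 in AI-NS rats. The AI-NS mean of 3.90 lay under the low intensity limit of 4, and the probeset was not tested where every array had to reach it. AI-S replicates 1 and 5 were also under 4, and the other 6 AI-S rats were above the highest AI-NS rat. The probeset was picked by SAM, and how many of all probesets separated as far was not counted. The log2 difference was 1.83 (SE 0.49, against a group under that limit, limma adjusted p = 0.862, unadjusted p = 0.00184). In AU rats it was -1.71, with 3.05, 4.27 and 6.20 in AU-S and 3.90, 6.67 and 8.12 in AU-NS rats. The interaction was 3.54 (unadjusted p = 0.000156, adjusted p = 1.00). No probeset of the deposited values had a mean under 5.0002. With an AI-NS mean of 3.90, the probeset called by SAM reached that level through its higher groups. These were AI-S (mean 5.73) and AU-NS (median 6.67). What part such a cut has in the SAM call and in the interaction was not tested. The brightest Mx2 probeset had -0.29 (SE 0.28) in AI and 0.57 in AU rats, so the 2 probesets differed in sign.

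Training condition was not shown to act differently in aged impaired and unimpaired rats for any probeset. By limma over the 31 arrays the interaction passed for 0 of 16204 probesets (0%), with a smallest adjusted p of 1.00, and 396 had an unadjusted p under 0.05. AU-S minus AU-NS alone gave 0 probesets at an adjusted p under 0.1 and 1316 at an unadjusted p under 0.05. After Mx2, the smallest interaction p among the named probesets was that of Sync, an intermediate filament protein, at -1.21 (unadjusted p = 0.00119), with -0.56 in AI and 0.64 in AU rats. Its brightest probeset had 0.08 and -0.08. Ubxn11 followed Amigo2, with an interaction of 0.48 (unadjusted p = 0.00800). Mx2, Sync and Ubxn11 were named for a small p or a large difference in AI rats. The interaction contains that difference, so a small interaction p comes in part with the choice.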

How the data were processed

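RNA of hand-dissected CA3 was hybridized to Affymetrix rat arrays, 1 per rat. The authors deposited a table of log2 values made with gcRMA (version not given in the sources used here). The values run from 1.312 to 16.12 over 16204 probesets, and the smallest probeset mean was 5.0002, so the low intensity limit of 4 removed none. GEO's platform annotation named a single gene for 12242 probesets (9037 genes), several for 293 and none for 3669. The brightest probeset stands for a gene in lists. Samples were grouped by their labels. Replicates are separate rats, 1 of 8 AI-NS arrays having been removed by the authors.

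The AI-S and AI-NS arrays entered a two-sided limma 3.58.1 test in R 4.3.3 (lmFit, then eBayes with a constant prior), adjusted by Benjamini-Hochberg across every probeset, with a threshold of 0.1. The interaction was fitted over all 31 arrays. SAM was coded by hand with 100 permutations, and distances and RNA controls used exact permutation tests. The scripts were tested on simulated data. The set of named genes held every measured subfield and activity-regulated gene and the 3 genes with the smallest p of each other list. It also held the 10 probesets with the smallest p in each direction. Added were the 5 in each direction with the largest difference among those at an unadjusted p under 0.05. The 5 strongest interactions were taken from among these. Not every gene of the set is given in the text. Other probesets of a named gene were looked up beside it. The 32 lists (802 genes, 554 measured) and these choices were made with earlier results of these data known. Alternatives were other signal limits, quantile normalization or centring of arrays, a robust prior with trend, weighted arrays, a block for replicate number, covariates (RNA controls, subfield scores), SAM, a 4-group fit, all probesets of each gene, and single arrays left out. Learning index scores, behavioral runs and hybridization batches were left out. Python 3.11.15 and matplotlib 3.10.9 drew the figures.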

Additional observations from a re-analysis of the deposited data

Results flagged for a closer look

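Of 210 groups of values examined in AI-S and AI-NS rats (74 probesets, 30 list scores and the RNA control difference, each in 2 groups), 19 held a single array far from the others of its group by Dixon's test, where chance gives about 1 in 20. AI-NS replicate 4 was the highest of its group for the CA1 marker score (0.7516) and for the signals of Wfs1 (10.5), Ccn3 (10.98), Mpped1 (12.25) and Man1a1 (9.543), and also for Lnc215 (10.08). AI-NS replicate 3 was the highest for the oxidative phosphorylation score (0.2531), the interneuron score (0.3435), Anp32a (9.562) and Gipc1 (7.408). AI-NS replicate 8 had the highest RNA control difference (1.924), AI-NS replicate 7 the highest CA3 score (0.1044) and AI-NS replicate 1 the highest Rfx3 signal (10.6).

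In AI-S, replicate 5 was the lowest for Ndufv2 (11.2) and Pxmp4 (7.449) and the highest for Fos (9.715). Replicate 7 was the highest for Anp32a (9.86), replicate 4 for Vof16 (7.595) and replicate 1 for the score of postsynaptic kinases and scaffolds (0.243). No cause was tested for any of these arrays.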

How the results depend on the processing

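The count of probesets at an adjusted p under 0.1 was 0 in every limma alternative, including each array left out in turn, and 1 by SAM. The count at an unadjusted p under 0.05 was 1148 with array weights, against 662, and ran from 401 to 1502 when an array was left out: 401 without AI-NS replicate 1, 1502 without AI-NS replicate 3 and 1417 without AI-S replicate 5. With AI-NS replicates 3, 4 and 8 left out together, chosen after the data were seen, it was 796, and the medians were 0.33 for granule cell, 0.12 for CA1, -0.07 for immediate early and 0.04 for effector genes. With the granule cell and CA1 scores as covariates the differences of Trpc6 (-0.0653), Rfx3 (-0.0516) and Ntf3 (-0.0684) turned sign, and Trpc6 and Rfx3 are part of the score. The cause of these shifts was not tested. The distance between groups minus that within them ran from -0.000154 to 0.000751 over the arrays left out, with AI-NS replicates 4 and 3 the ends. The labels do not say whether the replicate numbers pair the rats. Of 7 same-numbered pairs 2 had deviations that correlated above 0.1 (-0.391 to 0.145), and 1 array of 7 correlated best with its own number. With so few pairs these correlations cannot show whether the numbers mark a shared run or batch. With the number as a block, 445 probesets had an unadjusted p under 0.05 and 0 passed, and the interaction passed for 0. The number of rats and the spread between them limit all values.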

Other observations

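Genes of the remaining lists held no larger shared difference in the AI rats. Of 23 genes of cholesterol synthesis and uptake 15 were above 0 (median AI-S minus AI-NS 0.01), and of 8 neurogenesis genes 4 were (median -0.01), none with an unadjusted p under 0.05. Dcx, a microtubule protein of young neurons, had -0.15 (SE 0.13) and Tubb3, a neuronal tubulin, 0.16 (SE 0.13). The only choroid plexus gene measured, Enpp2, had -0.09 (SE 0.11), and the only red blood cell gene, Hbb, -0.17 (SE 0.26), with signals from 10.23 to 12.04 in AI-S and from 10.36 to 11.79 in AI-NS rats. The clock gene Bhlhe40 had a wide difference of 1.15 with an unadjusted p of 0.0959, and it was singled out after its value was seen.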
